A study of Saccharomyces cerevisiae with 2 samples.

Results

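The 10 genes described here act in the synthesis of vitamin B6 and of thiamine in budding yeast. They are SNZ1 to SNZ3, SNO1 to SNO3, THI5, THI11, THI12 and THI13, taken by systematic name from a table of 6448 reading frames. They were chosen by name with their counts and strain ratios already known, and so in effect selected on those values, which are given as a description without a test. Nascent transcription was measured by BioGRO-seq, in which polymerases already on a gene extend their RNA with a biotin-labelled UTP, and that RNA is purified and sequenced. Wild-type BY4741 gave 1 library and a Euroscarf strain without XRN1, here xrn1Δ, gave the other, both from cultures at an OD600 of 0.55. The run-on lasted 5 min at 30 °C in 0.5% sarkosyl for both. Xrn1 is the main cytoplasmic 5′ to 3′ exonuclease of mRNA, and the study concerns its influence on transcription. The labels state no growth medium, so the supply of these vitamins to the cells is not known here, and they name no clone. With 1 library per strain, the intervals below cover counting error only, and variation from culture to culture is unknown.

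Pyridoxal 5′-phosphate, the active form of vitamin B6, is the cofactor of transaminases and many other enzymes of amino acid metabolism. Snz proteins are the synthase subunits that assemble it from sugar phosphates and ammonia, and Sno proteins are the glutaminase subunits that release that ammonia from glutamine. Thiamine diphosphate is the cofactor of pyruvate decarboxylase and transketolase. The Thi5 family makes its pyrimidine part, and pyridoxal phosphate is a substrate for that step. SNZ1 and SNO1 are known for induction in stationary phase and upon amino acid shortage, whereas the other SNZ and SNO genes and the THI5 family are known for induction when thiamine is scarce.

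Total counts were 64934493 in the wild-type library and 46396400 in the xrn1Δ library. XRN1 had 41954 and 53 counts, which matches the label of each library. LEU2 had 1 and 2 counts, URA3 4 and 2, and MET17 4 and 12, so these marker genes of the BY4741 background were near 0 in both libraries.

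The genes lie at 5 places. SNZ1 (YMR096W, R64 chromosome XIII, 458408 to 459301) and SNO1 (YMR095C, 457285 to 457959) stand back to back, 457 kb or more from the nearest chromosome end. SNZ2 (YNL333W, chromosome XIV, 13267 to 14163), SNO2 (YNL334C, 12208 to 12876) and THI12 (YNL332W, 14832 to 15854) form a block near a chromosome end. SNZ3 (YFL059W, chromosome VI, 11363 to 12259), SNO3 (YFL060C, 10301 to 10969) and THI5 (YFL058W, 12929 to 13951) form a second block with the same order and strands. THI11 (YJR156C, chromosome X, 728574 to 729596) and THI13 (YDL244W, chromosome IV, 16204 to 17226) each stand 16.2 kb from a chromosome end, without SNZ or SNO genes beside them.

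Copies in these blocks are nearly identical, and the bases that tell them apart set what their counts can rest on. The coding sequences of SNO2 and SNO3 are 99.7% identical over 669 bases. They differ by A280T and A314C, with the SNO2 base first and positions counted from 1 at the start codon. The stretch with both differences is shown on the coding strand, with the differing bases in capitals, from chromosome XIV, 12549 to 12611, and chromosome VI, 10642 to 10704 (RefSeq, R64, minus strand in each).
SNO2: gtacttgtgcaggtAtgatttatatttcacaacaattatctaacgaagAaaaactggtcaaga
SNO3: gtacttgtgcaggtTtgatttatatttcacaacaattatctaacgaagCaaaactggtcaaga

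SNZ2 and SNZ3 are 99.3% identical over 897 bases and differ by C303T, T702C, T750C, T777C, G789A and A796G, with the SNZ2 base first. All but C303T fall in the stretch below, from chrXIV:13954-14076 and chrVI:12050-12172 on the plus strand, with the differing bases in capitals.
SNZ2: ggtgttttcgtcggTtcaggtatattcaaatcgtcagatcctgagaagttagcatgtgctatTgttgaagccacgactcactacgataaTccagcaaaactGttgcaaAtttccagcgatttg
SNZ3: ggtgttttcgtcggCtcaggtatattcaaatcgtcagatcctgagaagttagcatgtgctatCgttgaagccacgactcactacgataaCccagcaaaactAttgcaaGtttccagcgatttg

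A window of 30 bases was called unique when it occurs once in the R64 genome on either strand. SNO2 and SNO3 each have 60 unique windows of 640, SNZ2 and SNZ3 each 136 of 868. For the THI genes the number is 78 in THI5, 120 in THI11, 186 in THI12 and 282 in THI13, of 994 each. All windows of SNZ1 and SNO1 are unique, and their coding sequences are further from the other copies, with 70.7% identity between SNZ1 and SNZ2 and 59.0% between SNO1 and SNO2. Whether reads that match several places were counted is not stated in the labels. The 57 protein-coding genes with more than 0% but at most 20% unique windows had a median level of 0.967 CPM per kb (counts per 1000000 counts of the library, per kb of coding length) in wild-type cells, against 66.4 for the 4779 genes with unique windows throughout. The 6 genes with no unique window had a median of 0.106. The class of 57 genes includes SNZ2, SNZ3, SNO2, SNO3, THI5, THI11 and THI12 themselves, and its wild-type counts ran from 1 to 22849. Whether its low median reflects reads left out or low transcription was not tested. Since the treatment of reads that match several places is not known, the counts of the 8 members with repeated windows are uncertain. Levels per kb are given with levels per unique window beside them.

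**Figure D1:**
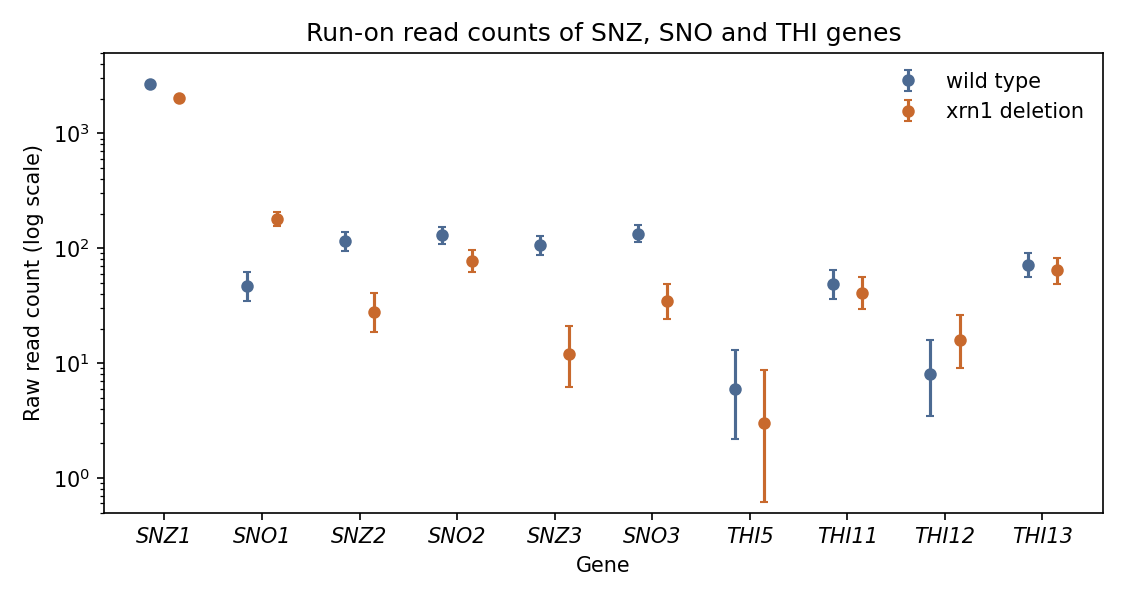
Raw read counts (log scale) of the 10 genes in wild-type cells and the xrn1Δ library, with 95% exact Poisson intervals. SNZ1 stands at 2675 and 2024 counts and all other members at or below 180.

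SNO1 was the member called higher in xrn1Δ cells, and SNZ2, SNZ3 and SNO3, near the chromosome ends, were called lower. Each ratio below sets the xrn1Δ count over the wild-type count and is scaled so that the median protein-coding gene, at a raw value of 0.701, stands at 1. A member was called when this ratio reached 2 or fell to 0.5 or below, its 95% exact interval excluded 1, and both libraries together held at least 100 counts. Of the 10 members, 7 reached 100 counts, 1 was called higher and 3 lower. Among all 5198 protein-coding genes with that many counts, 4.06% were called higher and 1.52% lower. Among the 136 of them with fewer than 500 counts, where 6 of the 7 members fall, these shares were 21.3% and 12.5%. Since the members were chosen with these ratios known, nothing is read from their share of calls. The minimum applies to the sum, and each called member passed 100 counts in 1 library only. The other library held 47 counts for SNO1, 28 for SNZ2, 12 for SNZ3 and 35 for SNO3.

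SNZ1, the synthase subunit gene of the chromosome XIII pair, had 2675 counts in wild-type cells and 2024 in xrn1Δ cells. Its ratio was 1.08 (95% interval 1.02 to 1.14), so it stayed close to the median gene. SNO1, the glutaminase gene across the shared upstream region, had 47 and 180 counts and a ratio of 5.46 (3.94 to 7.70). Both genes are unique in sequence, so no other copy shares their reads. The neighbouring gene CTF13, which runs towards SNO1, ends 24 bp from it. CTF13 had 2948 counts in wild-type cells and 1466 in xrn1Δ cells. Use of strand in counting is not given, and whether reads from CTF13 add to the SNO1 count was not tested.

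The SNZ1 and SNO1 pair was unequal in level in both strains. SNZ1 stood at 46.1 CPM per kb in wild-type cells and 48.8 in xrn1Δ cells. These levels are at the 29.7 and 32.8 percentile of the 5273 protein-coding genes with a length. SNO1 stood at 1.07 and 5.75 CPM per kb, at the 2.11 and 4.61 percentile. Per kb, SNZ1 was 43.0-fold above SNO1 in wild-type cells and 8.49-fold above it in xrn1Δ cells. SNO1 took 1.73% of the counts of the pair in wild-type cells (95% exact binomial interval 1.27% to 2.29%) and 8.17% in xrn1Δ cells (7.06% to 9.39%). The glutaminase gene thus remained the lesser one of the pair in both libraries.

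The region between SNO1 and SNZ1 is 448 bases long and holds 3 copies of TGACTC, the core of the sequence bound by Gcn4, the activator of amino acid biosynthesis genes. All 3 lie on the SNZ1 strand. The stretch that holds them is shown first, from chrXIII:458093-458244 on the plus strand, with TGACTC in capitals. It is followed by the window at the same distance from the start codon of SNZ2, chrXIV:12952-13103 on the plus strand, which holds none.
SNZ1: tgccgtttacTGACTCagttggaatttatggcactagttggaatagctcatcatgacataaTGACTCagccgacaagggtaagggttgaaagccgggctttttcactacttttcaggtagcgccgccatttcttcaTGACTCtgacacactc
SNZ2: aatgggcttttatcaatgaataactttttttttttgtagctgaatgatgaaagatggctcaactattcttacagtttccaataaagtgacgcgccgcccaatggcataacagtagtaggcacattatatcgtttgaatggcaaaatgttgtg

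TGACTC was searched on both strands, with no other motif. The window shown was set by the first and last copy before SNZ1, with 10 bases on each side. That SNZ1 holds 3 there was thus fixed in advance. In windows of this length and distance, 5.01% of 5273 protein-coding genes hold at least 1 copy and 4 genes, SNZ1 among them, hold 3 or more. In the 600 bases before the start codon, 15.8% hold at least 1 and 10 genes hold 3 or more. Of the 10 members only SNZ1 and SNO1 hold any there, and theirs are the same 3 copies of the shared region. The 390 bases between SNO2 and SNZ2 and the 393 between SNO3 and SNZ3 hold 0 copies. A match is a description of the sequence and shows no binding.

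SNZ2 and SNZ3, the synthase subunit copies near the chromosome ends, both had lower ratios. SNZ2 had 115 counts in wild-type cells and 28 in xrn1Δ cells, a ratio of 0.347 (0.221 to 0.528). SNZ3 had 106 and 12 counts, a ratio of 0.161 (0.0808 to 0.294). Summed over the copies, 221 counts stood against 40 and the ratio was 0.258 (0.179 to 0.363), which is 3.88-fold lower. The sum does not depend on how reads were divided between the copies, but it does depend on whether reads that match both were kept. The levels of these genes in wild-type cells were 1.97 CPM per kb for SNZ2 and 1.82 for SNZ3, far below the 46.1 of SNZ1.

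Of the glutaminase gene copies, SNO3 was called lower and SNO2 was not. SNO2 had 130 and 78 counts, a ratio of 0.855 (0.638 to 1.14), and SNO3 had 134 and 35, a ratio of 0.372 (0.249 to 0.544). Summed, 264 counts stood against 113 and the ratio was 0.610 (0.485 to 0.764). That sum lies below the median gene by less than 2-fold, and its interval lies above that of the SNZ2 and SNZ3 sum.

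The division of counts between the copies moved in the same direction for both pairs. SNO2 took 49.2% of the SNO2 and SNO3 counts in wild-type cells (95% exact binomial interval 43.1% to 55.4%) and 69.0% in xrn1Δ cells (59.6% to 77.4%). SNZ2 took 52.0% of the SNZ2 and SNZ3 counts in wild-type cells (45.2% to 58.8%) and 70.0% in xrn1Δ cells (53.5% to 83.4%). The intervals were apart for the SNO pair and overlapped for the SNZ pair. By locus, a sum made after the values were seen, SNZ and SNO of chromosome VI had 240 and 47 counts and a ratio of 0.279 (0.200 to 0.383). Those of chromosome XIV had 245 and 106 counts and a ratio of 0.617 (0.486 to 0.778). The wild-type library thus held nearly equal counts at both loci, and the xrn1Δ library held fewer at chromosome VI. For the SNO pair, the unique windows span only the 93 bases from position 251 to 343 of the coding sequence.

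**Figure D2:**
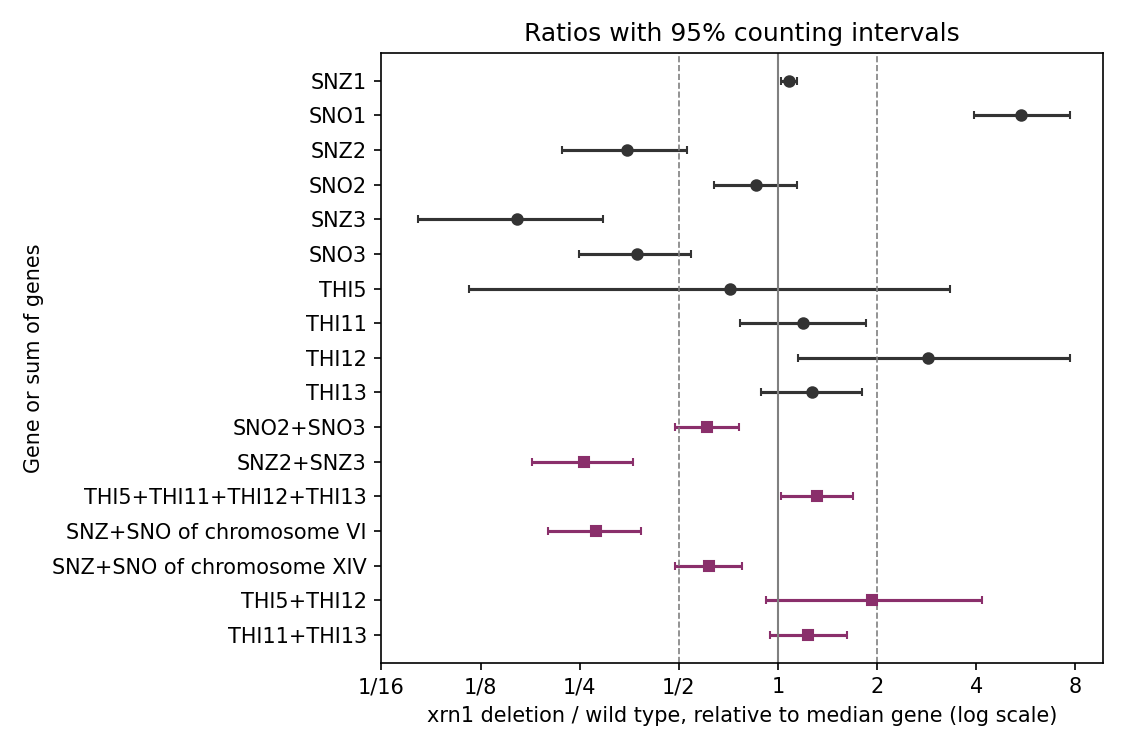
Ratios of xrn1Δ over the wild type, relative to the median gene (log scale), with 95% exact counting intervals, for the 10 genes (circles) and for sums of genes (squares). Dashed lines mark a ratio of 0.5 and of 2. SNO1 and THI12, the latter with 24 counts in all, lie above 2. Among the values below 0.5 are SNZ2, SNZ3, SNO3 and the sum of SNZ2 and SNZ3.

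The THI5 family, which makes the pyrimidine part of thiamine, had few counts in either library. THI13 had 72 counts in wild-type cells and 64 in xrn1Δ cells, a ratio of 1.27 (0.891 to 1.80), and it alone of the family reached 100 counts. THI11 had 49 and 41 counts, a ratio of 1.19 (0.768 to 1.84). THI12 had 8 and 16 counts, a ratio of 2.85 (1.15 to 7.70), and THI5 had 6 and 3, a ratio of 0.713 (0.115 to 3.34). At these counts no difference in direction between the copies can be read. Summed over the family, 135 and 124 counts gave a ratio of 1.31 (1.02 to 1.68), under 2-fold. THI11 and THI13 gave most of these counts. The sum of THI5 and THI12, which stand beside SNZ genes, had a ratio of 1.93 (0.920 to 4.17), an interval that includes 1.

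The family fell into pairs by level and by upstream sequence. THI11 and THI13, which stand alone, together had 121 counts in wild-type cells and 105 in xrn1Δ cells. THI5 and THI12, which stand next to SNZ genes, had 14 and 19. All 4 coding sequences have 1023 bases, so these counts compare levels directly, apart from the repeated windows. Per 1000 unique windows the levels were 4.64 and 5.63 CPM for THI11 and THI13 against 0.817 and 1.55 for THI5 and THI12. THI11 and THI13 are identical over the 600 bases before the start codon, and THI5 and THI12 are 99.3% identical there, whereas THI5 and THI13 are 75.0% identical. Coding sequences do not follow that split as closely, with 98.3% identity between THI11 and THI13, 98.8% between THI5 and THI11 and 99.3% between THI5 and THI12. These pairs were described after their values were seen.

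A stretch of 110 bases from the upstream regions of THI5 (chrVI:12630-12739, plus strand) and THI13 (chrIV:15904-16013, plus strand) shows part of these differences, with 8 differing bases in capitals. Over the nearest 300 bases THI5 and THI13 are 94.4% identical, so most of the differences lie further upstream.
THI5: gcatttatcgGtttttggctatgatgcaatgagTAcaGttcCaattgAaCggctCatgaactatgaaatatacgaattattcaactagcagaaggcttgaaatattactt
THI13: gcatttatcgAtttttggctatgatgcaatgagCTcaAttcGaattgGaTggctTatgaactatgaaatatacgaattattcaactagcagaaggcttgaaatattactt

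The order of the levels depended on the measure of length. Per kb, the SNO2 and SNO3 sum stood at 3.04 CPM in wild-type cells and 1.82 in xrn1Δ cells, and the SNZ2 and SNZ3 sum at 1.90 and 0.481. Per 1000 unique windows, the SNO2 and SNO3 sum stood at 33.9 and 20.3, against 47.6 and 50.4 for SNZ1. The SNZ2 and SNZ3 sum stood at 12.5 and 3.17 on that scale. SNO1 was at 1.12 and 6.01 and was the lowest SNZ or SNO gene or sum in wild-type cells by both measures. Per unique window, then, the glutaminase genes near the chromosome ends stood above SNO1 in both libraries, while per kb SNO1 stood above them in xrn1Δ cells. Levels per unique window hold only if reads in repeated windows were left out of the counts, which was not tested.

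**Figure D3:**
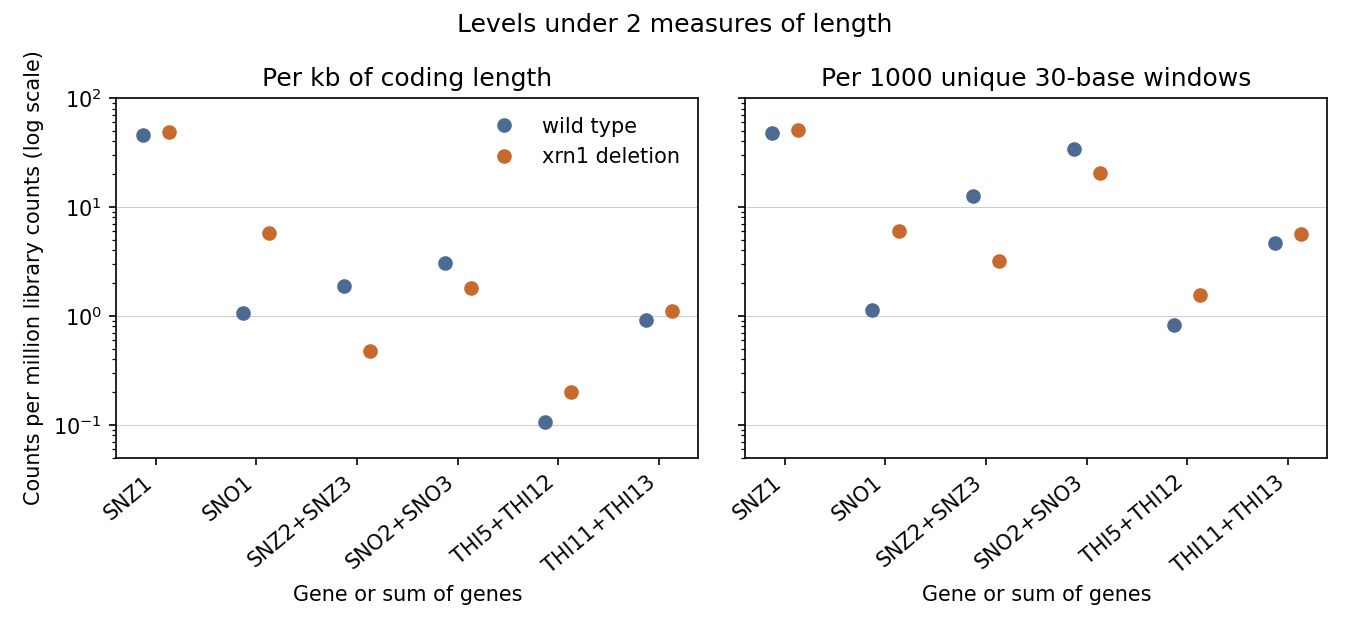
Levels in CPM (log scale) per kb of coding length (left) and per 1000 unique 30-base windows (right), for SNZ1, SNO1 and sums over near-identical copies in both libraries. SNZ1 is highest in both panels, and the SNO2 and SNO3 sum in wild-type cells is at 3.04 in the left panel and 33.9 in the right.

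Ratios of the genes around the members lay on both sides of the median gene. Of 20 annotated neighbours within 5 kb of a member, 18 reached 100 counts, 2 were called higher and 0 lower. Among all 5198 protein-coding genes tested, 4.06% were called higher and 1.52% lower. Both neighbours that were called had fewer than 500 counts, and no other tested neighbour had so few. Of protein-coding genes at that depth, 21.3% were called higher and 12.5% lower. YDL242W, 1 of these 2, is a putative reading frame and outside the protein-coding class. Nothing is read from these 2 calls. Around SNO1 and SNZ1 all 6 neighbours lay between 0.709 and 1.22. CTF13 (YMR094W), a kinetochore protein gene that runs towards SNO1, had the 0.709 (0.666 to 0.755), and MTG1 (YMR097C), a mitochondrial GTPase gene that runs towards SNZ1, had 0.985 (0.939 to 1.03). Beside THI12, the aryl-alcohol dehydrogenase family gene AAD14 (YNL331C) had 2132 and 793 counts and a ratio of 0.530 (0.488 to 0.576), on the same side of 1 as SNZ2 and just short of the call. Its relatives AAD10 (YJR155W) beside THI11 and AAD4 (YDL243C) beside THI13 had 1.24 and 0.842. On the other side of the SNO genes, YNL335W (DDI2 in RefSeq) had 6 and 12 counts and YFL061W (DDI3 in RefSeq) 9 and 8, and each has 4.62% unique windows. The amino acid permease gene AGP3 (YFL055W) had 1.56 (1.45 to 1.69). It was the nearest gene beyond THI5 among those matched to RefSeq, and unmatched reading frames could not be placed.

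The neighbours called higher were COS4 and YDL242W. COS4 (YFL062W), of a subtelomeric membrane protein family, had 107 and 166 counts and a ratio of 2.21 (1.72 to 2.85), with 17.1% unique windows. The putative reading frame YDL242W had 49 and 97 counts and a ratio of 2.82 (1.98 to 4.06). COS4 lies on chromosome VI, where SNZ3 and SNO3 had the lowest ratios of their pairs, so genes within a few kb there had ratios on both sides of 1.

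**Figure D4:**
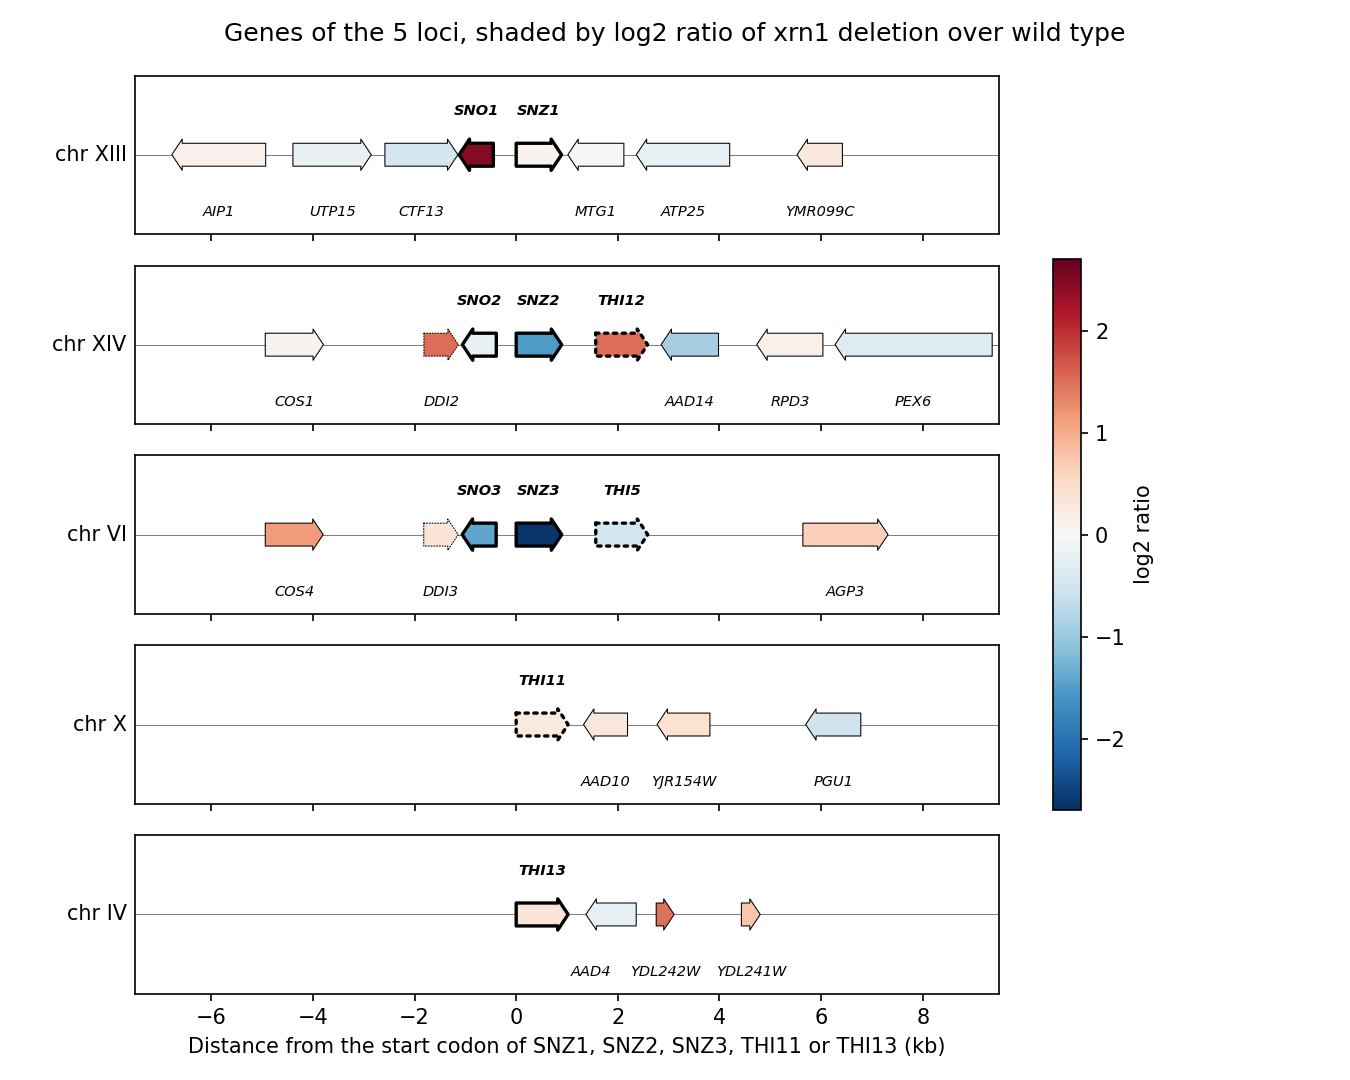
The 5 loci, with each gene as an arrow in its direction of transcription at its distance in kb from the start codon of SNZ1, SNZ2, SNZ3, THI11 or THI13, shaded by log2 ratio. Heavy outlines mark the 10 genes, dotted outlines genes under 100 counts, and only genes matched to RefSeq within 5 kb of a member are drawn. SNO1 is the darkest gene of the chromosome XIII row, and SNZ3 of the chromosome VI row.

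The other genes of both pathways had ratios between 0.517 and 1.80. Of 17 other thiamine genes, 0 were called in either direction, where 4.06% of all 5198 genes were called higher and 1.52% lower, so a count of 0 is near the share over all genes. Their median log2 ratio was −0.12, against 0.00 over all 5198 genes tested. Among them 12 were below the median gene. THI4, which makes the thiazole part of thiamine, was lowest with 419 and 152 counts and a ratio of 0.517 (0.427 to 0.624). PHO3, a thiamine-repressed acid phosphatase gene, had 18768 and 14863 counts and a ratio of 1.13 (1.105 to 1.15). PDC2, for the activator of thiamine and pyruvate decarboxylase genes, had 12241 and 8326 counts and a ratio of 0.970 (0.943 to 0.997). PET18 was highest at 1.48 (1.37 to 1.61).

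Of 6 other vitamin B6 genes, 0 were called, which is again near the share over all genes, and their median log2 ratio was −0.04. PDX3, for the oxidase that turns pyridoxine phosphate into pyridoxal phosphate, was highest, with 4273 and 5385 counts and a ratio of 1.80 (1.73 to 1.87). TPN1, for the plasma membrane pyridoxine transporter, was lowest, with 13483 and 7993 counts and a ratio of 0.845 (0.822 to 0.869). BUD17, for a putative pyridoxal kinase, had 3940 and 3135 counts and a ratio of 1.13 (1.08 to 1.19).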

How the data were processed

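The authors deposited 1 table of raw counts per reading frame, with 1 column per strain, per the file header. Per the submitters' processing notes, the tools include TopHat2 2.1.1, Trimmomatic, FastQC, Subread and featureCounts, with R64 and sacCer3 as builds. Settings, use of strand and treatment of multiply matching reads are not given in the sources used here. Positions, symbols and sequences came from RefSeq R64, which matched 5831 of the 6448 rows by locus tag.

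Ratios were scaled to the median among protein-coding genes that reached 100 counts, whose unscaled value was 0.701. Intervals are 95% and exact, Clopper-Pearson for ratios and shares and Poisson for counts. These intervals cover counting error only and take each read as independent. The protocols name no molecular identifiers, so any duplicate reads would make the intervals too narrow. A shift of all genes together would not show. No p-value is given. Named genes are the 10 members. From the pathway lists they are those past 2-fold, the most counted, and the highest and lowest. Of neighbours they are the nearest on each side where one was found, and those past 2-fold. No annotated neighbour within 5 kb was found on the chromosome-end side of THI11 or THI13. BUD17 and the AAD comparison were added. The members and lists were chosen with earlier results of these data known. Alternatives were 4 scalings, 5 added to each scaled count, count minimums, a 1.5-fold threshold and unique windows. The procedure was tested on simulated counts with Poisson error only, with changes placed in genes of at least 500 counts. That simulation does not cover changes at the lower counts of the called members, or variation between cultures. Software was edgeR 4.0.16 and DESeq2 1.42.0, for scaling only, in R 4.3.3, and scipy 1.17.1, pandas 2.3.3, numpy 2.4.6 and matplotlib 3.10.9 in Python 3.11.15.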

Additional observations from a re-analysis of the deposited data

How the results depend on the processing

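No paired analysis was possible because there was a single library of each strain, which also left no replicate to omit. Of the 155 values under alternatives, 138 stayed the same by the rule for their kind and 17 moved. Ratios and levels had to stay within their counting interval, and counts of calls within 1.5 times. Medians of the pathway lists had to stay within a range of the ratios of their genes. For the vitamin B6 list that was the full range, so its median could hardly move. No ratio changed direction. The 4 other scalings shifted the median gene by up to −0.03 (log2). Without a count minimum 2 members were called higher, THI12 being the addition. With at least 500 counts, which of the members only SNZ1 reaches, 0 were called higher and 0 lower. Levels moved with the measure of length. Per 1000 unique 30-base windows and per 1000 unique 50-base windows, the second chosen after seeing the data, the SNO2 and SNO3 sum was at 33.9 and 24.2 CPM in wild-type cells and 20.3 and 14.5 in xrn1Δ cells. The SNZ2 and SNZ3 sum was at 12.5 and 8.77 in wild-type cells and 3.17 and 2.22 in xrn1Δ cells. The sum of the 4 THI genes was at 3.12 and 2.02 in wild-type cells and 4.01 and 2.60 in xrn1Δ cells. SNZ1 was at 48.8 in wild-type cells and 51.6 in xrn1Δ cells per 1000 unique 50-base windows.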

Other observations

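The division of counts between copies was also measured in other near-identical gene pairs. Among protein-coding genes of equal coding length with at least 98% identity, at most 20% unique windows and at least 100 counts each, there were 12 pairs, 10 of them without SNZ or SNO genes. This comparison was made after the values were seen. In 9 of the 10, the share of a copy differed by less than 10 percentage points between the libraries, from −5.74 to 9.65 points. Most of these pairs were far deeper than the SNO and SNZ pairs, which held 113 and 40 counts in xrn1Δ cells. Of the shallower ones, HXT7 and HXT6 differed by 30.9 points, PHO11 and PHO12 by 9.65 and VTH1 and VTH2 by 1.29. Shifts larger and smaller than those of the SNO and SNZ pairs thus occurred among shallower pairs. The translation elongation factor gene TEF2 took 43.9% of the TEF2 and TEF1 counts in wild-type cells and 49.5% in xrn1Δ cells. EFT2, for elongation factor 2, took 65.8% of the EFT2 and EFT1 counts in wild-type cells and 66.4% in xrn1Δ cells. The exception was the hexose transporter gene HXT7, which took 56.5% of the HXT7 and HXT6 counts in wild-type cells (49.3% to 63.5%) and 87.4% in xrn1Δ cells (84.0% to 90.3%). For SNO3 the share fell by 19.8 points and for SNZ3 it fell by 18.0 points. The exact 95% intervals of the libraries were apart in 4 of the 10 other pairs. These intervals cover counting error only, and how far such shares vary from culture to culture is unknown.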
